A study of Mus musculus with 2 samples.

Results

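Genes that detect and repair DNA damage were compared in tracheal epithelial cells grown from wild-type and from Gprc5a knockout mice. The group was a fixed list of 53 genes of DNA damage signalling and repair. A listed gene counted as measured when the array table held a probe set carrying its symbol and no other, which was so for 48 of the 53, out of 14860 genes in all. Each of the 48 had 1 such probe set. The kinase gene Atr, the recombination gene Xrcc2, the Fanconi gene Fancd2, the excision repair gene Ercc6 and the ligase gene Lig3 had none in the table used here.

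Each genotype was represented by 1 array of total RNA. The wild-type cells were Gprc5a+/+ and the knockout cells Gprc5a-/-, both from C57 BL/6 × 129sv mice 3 weeks old. Both cultures were untreated and growing exponentially in K-SFM, a serum-free keratinocyte medium, with bovine pituitary extract (50 µg/ml) and epidermal growth factor (5 ng/ml). The labels do not give the number of animals behind a culture. With 1 sample per genotype no test is possible, the differences have no replicate check, and they hold whatever separates these cultures besides the genotype. Values are RMA log2 values, a difference is the knockout minus the wild-type value, and a fold is 2 raised to the size of that difference. The value of a probe set depends on its probes, so differences were taken between samples within a gene. Values of different genes were set beside each other only for the expression limits and summed marker levels given below, which are rough for this reason.

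DNA damage is met by kinases that sense it and hold the cell cycle, and by separate repair pathways for separate lesions. Nucleotide excision repair cuts out bulky adducts such as those of ultraviolet light and tobacco smoke, to which airway epithelium is exposed. Base excision repair removes single altered bases, mismatch repair corrects replication errors, and double-strand breaks are joined by homologous recombination or by end joining. The Fanconi pathway acts on crosslinks between strands, and translesion polymerases copy past lesions left in place. Some of these genes are themselves targets of the tumour suppressor p53. Polk is known as a p53-regulated gene in mouse cells, and Xpc and Ddb2 are best known as such from human cells. Many recombination and replication-linked repair genes are known targets of E2F transcription factors and rise as cells enter S phase.

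Among the listed genes Polk and Ercc5 were higher in the knockout sample by 2-fold or more, and Rad54l was lower by as much. To show the DNA around the annotated starts of these 3 genes, the RefSeq promoter windows of GRCm38.p6 are given. Each runs from 250 bases before to 50 bases after the start. RefSeq holds a pair of starts for Polk, on the minus strand at chr13:96519138-96519437 and chr13:96542530-96542829. On that strand the second start is the upstream one, and the first window lies downstream of it. The Ercc5 window is chr1:44147494-44147793 on the plus strand. The Rad54l window is chr4:116123641-116123940 on the minus strand, and a second Rad54l entry is the same window moved by 1 base. Capitals mark a p53 consensus half-site in the first, downstream Polk window and the element TTTGAA, read on the minus strand, in the Ercc5 window. The upstream Polk window held no p53 half-site.
Polk, start in the first window: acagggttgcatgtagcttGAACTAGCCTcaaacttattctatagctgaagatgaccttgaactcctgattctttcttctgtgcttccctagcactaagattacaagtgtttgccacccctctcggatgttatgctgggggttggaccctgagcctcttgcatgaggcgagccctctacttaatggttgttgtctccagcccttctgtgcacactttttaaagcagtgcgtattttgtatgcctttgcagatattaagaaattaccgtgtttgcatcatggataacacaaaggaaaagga
Polk, start in the second window: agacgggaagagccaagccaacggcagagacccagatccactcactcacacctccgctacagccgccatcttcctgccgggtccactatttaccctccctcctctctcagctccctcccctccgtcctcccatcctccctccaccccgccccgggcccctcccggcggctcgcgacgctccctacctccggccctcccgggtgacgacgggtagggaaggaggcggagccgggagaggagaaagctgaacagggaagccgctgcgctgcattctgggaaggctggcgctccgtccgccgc
Ercc5: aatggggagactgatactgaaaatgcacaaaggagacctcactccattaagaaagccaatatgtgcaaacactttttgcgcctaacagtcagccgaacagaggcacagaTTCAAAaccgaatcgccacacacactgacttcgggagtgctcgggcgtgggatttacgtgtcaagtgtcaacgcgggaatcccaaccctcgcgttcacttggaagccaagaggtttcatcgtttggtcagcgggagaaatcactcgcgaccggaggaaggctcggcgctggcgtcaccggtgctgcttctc
Rad54l: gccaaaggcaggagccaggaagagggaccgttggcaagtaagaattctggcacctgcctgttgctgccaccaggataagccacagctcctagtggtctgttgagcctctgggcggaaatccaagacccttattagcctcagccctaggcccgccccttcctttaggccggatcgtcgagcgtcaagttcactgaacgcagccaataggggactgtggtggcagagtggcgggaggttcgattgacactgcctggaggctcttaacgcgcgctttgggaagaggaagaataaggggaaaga

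Of the 48 measured genes, 41 had a promoter window, and Xpc and Ddb2 were among the 7 without one. Windows were searched on both strands for the p53 consensus half-site, for TTTCCCGC and TTTGGCGC as E2F-type sites, for the cell cycle element TTTGAA and for the GC box GGGCGG. A window of Polk, Fanca and Fancg held the p53 half-site, which is 3 of 41 genes or 7.32%, against 8.57% of 11869 array genes with a window. For Polk this was the downstream window only. An E2F-type site lay in a window of 7 of the 41, or 17.1%, against 2.75% of those array genes. The element TTTGAA was in windows of Bard1 and Ercc5, or 4.88% against 16.9%, and GGGCGG in those of 29 genes, or 70.7% against 56.9%. The array genes were taken at any expression level, while 46 of the 48 listed genes passed the level limit given below. A match is a string of letters and not a shown binding site.

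The E2F-type sites are printed because a larger share of the listed genes than of array genes held one. Each stretch gives the 8-base site in capitals with 10 bases on either side, on the strand of the gene, so that a site on the opposite strand reads GCGGGAAA.
Bard1: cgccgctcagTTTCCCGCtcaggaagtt
Brca2: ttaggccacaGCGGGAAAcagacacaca
Chek2: gggattagccGCGGGAAAccaagacgtc
Fancg: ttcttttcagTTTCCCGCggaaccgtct
Msh3: tgccgtcaagTTTGGCGCgaaatcgcag
Msh6: tcctcccgacTTTCCCGCcagcggcggc
Xrcc6: gggggtggaaGCGGGAAAtgcgagtggg
These lie at chr1:71103164-71103191 (Bard1, minus strand), chr5:150522443-150522470 (Brca2, plus), chr5:110839821-110839848 (Chek2, plus), chr4:43010336-43010363 (Fancg, minus), chr13:92355188-92355215 (Msh3, minus), chr17:87975055-87975082 (Msh6, plus) and chr15:82016313-82016340 (Xrcc6, plus). None of these 7 genes reached 1.5-fold: their differences ran from -0.21 for Bard1 to 0.20 for Brca2.

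The listed repair genes as a group differed about as much between the samples as genes in general. Counts of 2-fold differences were taken over genes whose higher value exceeded 6.76, the median over every probe set that carries a symbol, and 46 of the 48 passed this limit. Of the 46, 2 were higher in the knockout sample by 2-fold or more, or 4.35%, where 4.62% of the 7943 genes above the limit were. In the other direction 1 of 46 was at least 2-fold lower, or 2.17%, against 2.97%. At 1.5-fold the counts were 4 higher (8.70% against 11.0%) and 2 lower (4.35% against 7.70%). The median size of the difference was 0.21 for the 46 genes and 0.24 for all genes above the limit. All these shares of the listed genes are near the background of the array. Of 64 other genes of the same pathways above the limit, 1 was at least 2-fold higher and 1 at least 2-fold lower. At 1.5-fold 4 of these were higher (6.25%) and 9 lower (14.1%), and their median difference was -0.11.

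**Figure D1:**
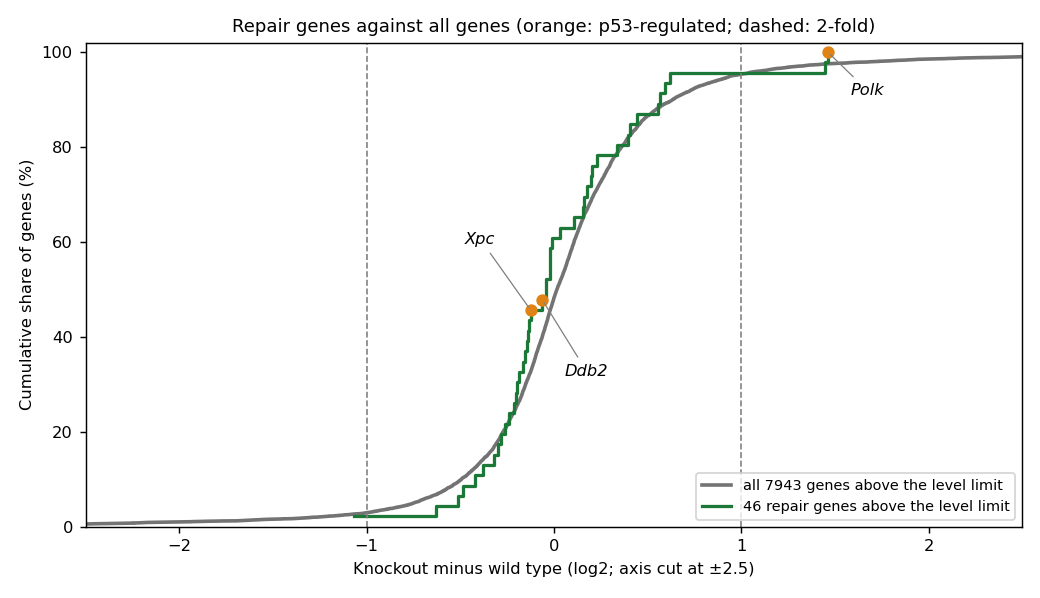
Cumulative share of genes (%) against the knockout minus wild-type difference (log2) for the 46 repair genes above the level limit and for all 7943 genes above it, with the p53-regulated genes in orange. The curves run close together, and Polk, at 1.46, is the highest of the repair genes while Ddb2 and Xpc lie near the middle.

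The level at which both arrays are set equal moved the 1.5-fold counts. Centring each column on its median over single-symbol probe sets moved the median difference of all genes from -0.03 to -0.14, and that of genes above the limit from 0.02 to -0.10. The repair genes' median moved with it, from -0.04 to -0.16, and its distance from that of genes above the limit was -0.06 both as deposited and with centring. With centring, 2 genes reached 1.5-fold upward and 4 downward, in place of 4 and 2, while the shares of all genes above the limit turned in the same way, to 8.49% upward and 10.7% downward. After joint quantile normalization of both columns 2 were higher and 2 lower, against 9.51% and 8.96% of all genes above the limit. On that scale the distance of the repair genes' median from that of genes above the limit was -0.09. The 2-fold counts did not move under either scaling.

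The targeted gene and the culture markers fitted the labels. Gprc5a, an orphan G protein-coupled receptor, was at 9.49 in wild-type cells and 4.05 in knockout cells. The latter lies below 5.05, the 95th percentile of olfactory and vomeronasal receptor genes, taken as the level of unexpressed genes. None of the 48 repair genes had a value below 5.05. Of 11 airway basal cell markers 10 were above the limit, with summed linear levels of 37593 (wild type) and 34154 (knockout), and Krt5 was at 12.71 and 12.62. None of 8 immune and none of 6 endothelial markers was above the limit. Of 10 fibroblast markers only Fn1 and Postn were. Fn1, which epithelial cells in culture can also express, made up most of that list's summed linear level, with 4549 of 4850 in the wild type and 3389 of 3998 in the knockout. Postn went from 4.28 to 8.46, or from 19.5 to 353 on the linear scale. The other 8 summed to 281 and 256. Of these, Col1a1 was at 6.15 and 6.09, Col1a2 at 5.98 and 5.74, and Col3a1 at 5.37 and 5.21. These collagen genes thus lay above 5.05 but under the level limit in both samples. Dcn, Lum, Pdgfra, Pdgfrb and Thy1 were under 5.05 in both. In a bulk sample, fewer cells of a type and less RNA per cell cannot be told apart.

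The kinases that signal damage were at nearly the same value in both samples, apart from Chek1. Atm, the kinase activated by double-strand breaks, had a wild-type value of 8.56 and a knockout value of 8.54. Chek2, which relays the signal of Atm, was at 9.31 and 9.29. These differences, of -0.02 and -0.01, are among the smallest of the listed genes. Chek1, the kinase that acts below Atr at stalled replication forks, went from 10.37 to 9.88, a difference of -0.48. Of 14 other genes of damage signalling, none was at least 1.5-fold higher, against 11.0% of all genes above the limit. Lower by at least 1.5-fold were 3, or 21.4%, against 7.70%. The 3 were Clspn, the claspin that helps activate Chek1, from 8.60 to 7.72, Cdc25a, a phosphatase that checkpoint kinases mark for destruction, from 9.52 to 8.68, and the histone gene H2afx, listed on the array as H2ax, from 9.13 to 8.53. Trp53bp1, a damage-site adaptor, had the highest difference of these 14, at 0.53.

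Homologous recombination genes had lower knockout values in 7 of 10 cases, with a median difference of -0.16 against 0.02 for all genes above the limit. Of those genes 48.2% had a lower and 51.8% a higher knockout value, and with column centring 61.3% and 38.7%. Rad54l, a DNA translocase that assists strand exchange, had a wild-type value of 8.92 and a knockout value of 7.86. This difference of -1.07, or 2.09-fold, was the lowest of the listed genes and ranked 215 from the bottom among the 7943 genes above the limit. No other member of the pathway reached 1.5-fold. Brca1 and its partner Bard1, which together form a ubiquitin ligase, went from 9.22 to 8.95 and from 9.09 to 8.88. Brca2, a mediator of strand exchange, went the other way, from 8.61 to 8.81. Palb2, which links Brca1 with Brca2, was below the level limit, at 6.63 and 6.21. It is among the 7 lower genes, and the median of the 9 genes above the limit was -0.14.

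The break-sensing complex of Mre11a, Rad50 and Nbn showed no shared direction. Mre11a, its nuclease, was at 9.33 and 9.20, Rad50, its ATPase, at 9.65 and 9.47, and Nbn, which recruits Atm, at 8.82 and 8.99. The differences thus ran from -0.19 to 0.18. Rad52, a strand-annealing protein, had a difference of 0.16 and Xrcc3, which acts in strand exchange, one of -0.13. Of 18 other recombination genes, 12 had lower and 6 higher knockout values, with a median of -0.22. Rpa2, a subunit of the single-strand binding protein RPA, went from 9.60 to 8.59. It was the one gene of the 18 at least 2-fold lower, or 5.56% against 2.97% of all genes above the limit. Rad51b and Rad51c, which also act in recombination, had differences of -0.80 and -0.69, and Mus81, a nuclease for branched DNA, was 1.73-fold higher, from 7.06 to 7.85.

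Cell cycle genes had lower knockout values in the same sample, and their part in the result was not tested. All 16 measured genes of G2 and mitosis had lower knockout values, with a median difference of -0.70, where 48.2% of all genes above the limit were lower. Of the 16, 10 were at least 1.5-fold lower, or 62.5% against 7.70% of all genes above the limit. Among them was Cdc20, which activates the ubiquitin ligase of anaphase, from 8.53 to 7.41. Of 18 S phase and replication genes 16 had lower values, but their median was -0.11. At least 1.5-fold lower was 1 of them, or 5.56%, the cyclin gene Ccne1 with a difference of -0.96.

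Genes of the Fanconi anaemia pathway differed little, and none above the limit reached 1.5-fold. Of 8 measured, 6 had higher and 2 lower knockout values, with a median difference of 0.18, where 51.8% of all genes above the limit were higher. Under both scaling alternatives 5 were higher and 3 lower. Fancl, the ubiquitin ligase of the pathway, went from 6.43 to 6.99, a difference of 0.57 or 1.48-fold, and passed the level limit by its knockout value only. Fanci, the partner of Fancd2 and the substrate of that ligase, went from 7.37 to 7.78. Fancc, a core complex subunit, went from 5.63 to 6.37, or 1.66-fold, but neither value reached the limit. It stands outside the fold counts but is among the 6 higher genes and in the median of 0.18. Over the 7 genes above the limit the median was 0.16.

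The other core complex genes were close between the samples. Fanca was at 7.83 and 8.03, Fancm, the translocase that brings the complex to DNA, at 6.89 and 7.05, and Fancb at 7.67 and 7.52. Fance and Fancg differed by -0.02 and 0.03, and the sign of Fancg turned under both scaling alternatives. Among 6 other genes of the pathway Usp1, the enzyme that removes ubiquitin from Fancd2 and Fanci, was the only one to reach 1.5-fold, going from 9.45 to 8.57. Ube2t, the conjugating enzyme that works with Fancl, had a difference of -0.49.

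All 3 measured mismatch repair genes had lower knockout values, none of them by 1.5-fold, where 48.2% of all genes above the limit were lower. Msh6 and Msh3, which recognise mismatches, went from 9.68 to 9.48 and from 8.42 to 8.25. Pms2, a nuclease subunit of the pathway, went from 9.21 to 8.79, or 1.34-fold. The median was -0.20. Of the other genes Mlh3 and Pms1 were measured, with differences of -0.16 and 0.07.

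Nucleotide excision repair held the second highest of the listed genes. Ercc5, the XPG nuclease that cuts on the 3′ side of the lesion, had a wild-type value of 7.41 and a knockout value of 8.85. The difference of 1.44, or 2.72-fold, ranked 198 from the top among genes above the limit. Ercc1, which with Ercc4 forms the nuclease that cuts on the 5′ side, went from 8.49 to 9.08, or 1.51-fold, while Ercc4 was at 7.47 and 7.57. Ercc1 fell short of 1.5-fold under both scaling alternatives, and the sign of Ercc4 turned with column centring.

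None of the remaining excision repair genes reached 1.5-fold. Xpa, which verifies the lesion, went from 7.58 to 8.03, and Ddb1, the adaptor of the ubiquitin ligase that carries Ddb2, from 11.55 to 11.89. The TFIIH helicase genes Ercc2 and Ercc3 were at 7.14 and 7.37 and at 9.99 and 9.95. Of 9 measured genes 6 had higher knockout values and the median difference was 0.23, where 51.8% of all genes above the limit were higher. With column centring 5 were higher and 4 lower, with a median of 0.11. After joint quantile normalization 6 were higher and 3 lower, with a median of 0.11. A higher direction was not seen in 8 other genes of the pathway, of which 2 were higher and 6 lower, with a median of -0.11 and none at 1.5-fold. The largest of those was Cetn2, a subunit of the XPC complex, at 0.50.

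The 3 listed translesion polymerases went in different directions. Polk, polymerase kappa, which copies past bulky adducts such as those of benzo[a]pyrene, had a wild-type value of 8.23 and a knockout value of 9.69. Its difference of 1.46, or 2.75-fold, was the highest of the listed genes and ranked 196 from the top among genes above the limit. Poli, polymerase iota, went from 8.41 to 8.81, and Polh, polymerase eta, which copies past ultraviolet-induced dimers, went from 10.29 to 9.77. Polh reached 1.5-fold only with column centring, at -0.63. Of the other genes Rev1, the scaffold to which these polymerases bind, went from 8.32 to 9.35, or 2.04-fold, and fell under 2-fold with column centring. Mad2l2, a subunit of polymerase zeta, and Polq, the polymerase of a microhomology-based joining pathway, had differences of -0.72 and -0.60.

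**Figure D2:**
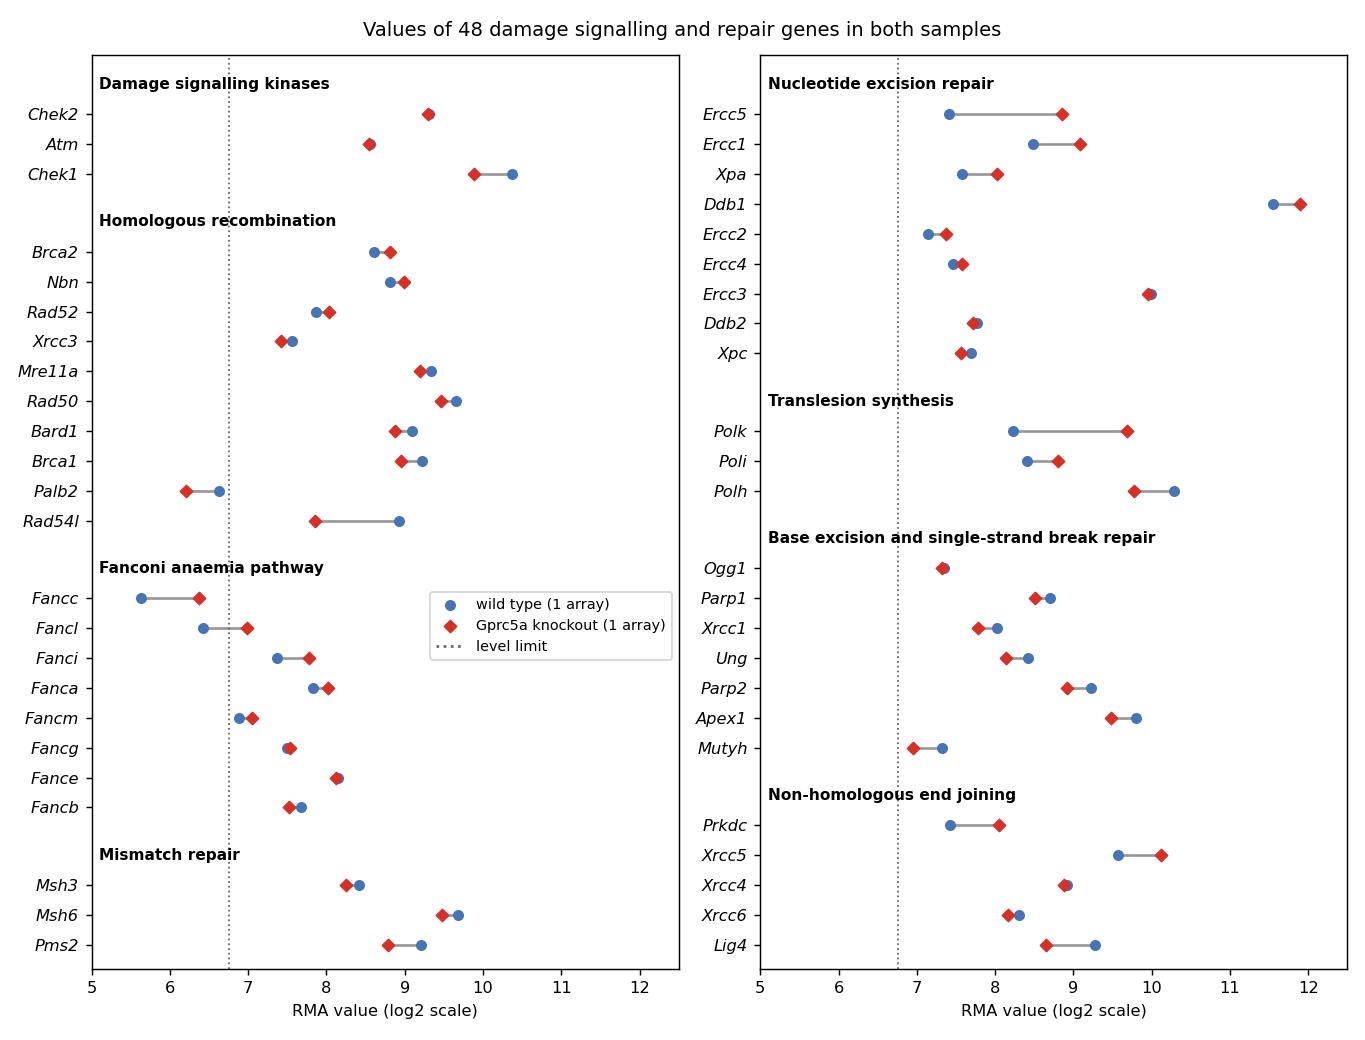
Log2 RMA values of the 48 genes in the wild-type (circles) and knockout (diamonds) sample, 1 array each, grouped by pathway, with the level limit of 6.76 dotted. Polk, Ercc5 and Rad54l have the longest lines between the samples, and every gene of base excision repair has its diamond at or left of its circle.

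Base excision and single-strand break repair had a shared direction of small size. All 7 measured genes had lower knockout values, from -0.38 to -0.02, with a median of -0.28, where 48.2% of all genes above the limit were lower. All 7 were also lower under both scaling alternatives. There the share of all genes above the limit with lower values was 61.3% with column centring and 53.2% after joint quantile normalization. Mutyh, the glycosylase that removes adenine paired with oxidised guanine, went from 7.32 to 6.94. Apex1, the endonuclease that cuts at abasic sites, went from 9.80 to 9.48. These 2 had the largest differences of the pathway, -0.38 and -0.32.

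The break sensors and the other glycosylases were within that range. Parp1 and Parp2, which mark strand breaks with poly(ADP-ribose), went from 8.71 to 8.51 and from 9.22 to 8.92. Xrcc1, the scaffold they recruit, went from 8.03 to 7.79, Ung, the uracil glycosylase, from 8.42 to 8.13, and Ogg1, which removes oxidised guanine, from 7.34 to 7.32. Other genes of the pathway did not share this direction: of 11 measured, 8 had higher and 3 lower knockout values, with a median of 0.11. Of these 11 genes 4 were not above the level limit, among them Neil2, under 5.05 in both samples. The median of the 7 above the limit was also 0.11. Mpg, the alkyladenine glycosylase, was the only one of the 7 to reach 1.5-fold, from 6.89 to 7.51. Polb, the gap-filling polymerase, had a difference of -0.28.

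End joining genes spread in both directions, and partners within a complex differed. Prkdc, the catalytic subunit of the DNA-dependent protein kinase, went from 7.43 to 8.04, or 1.53-fold, and fell short of 1.5-fold under both scaling alternatives. Lig4, the ligase that seals the joint, went from 9.27 to 8.64, or 1.54-fold, while its partner Xrcc4 was at 8.92 and 8.88. The Ku subunit gene Xrcc5 went from 9.57 to 10.12 and its partner Xrcc6 from 8.31 to 8.17, a gap of 0.70 between the differences of both subunits. Of the 5 genes 2 were higher and 3 lower, where 51.8% of all genes above the limit were higher. The median was -0.04 and the mean 0.07. Polm, a gap-filling polymerase of end joining, went from 6.52 to 7.51, passing the limit by its knockout value only. It was the only one of 4 other genes to reach 1.5-fold. The share at least 1.5-fold higher was thus 25.0%, against 11.0% of all genes above the limit.

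**Figure D3:**
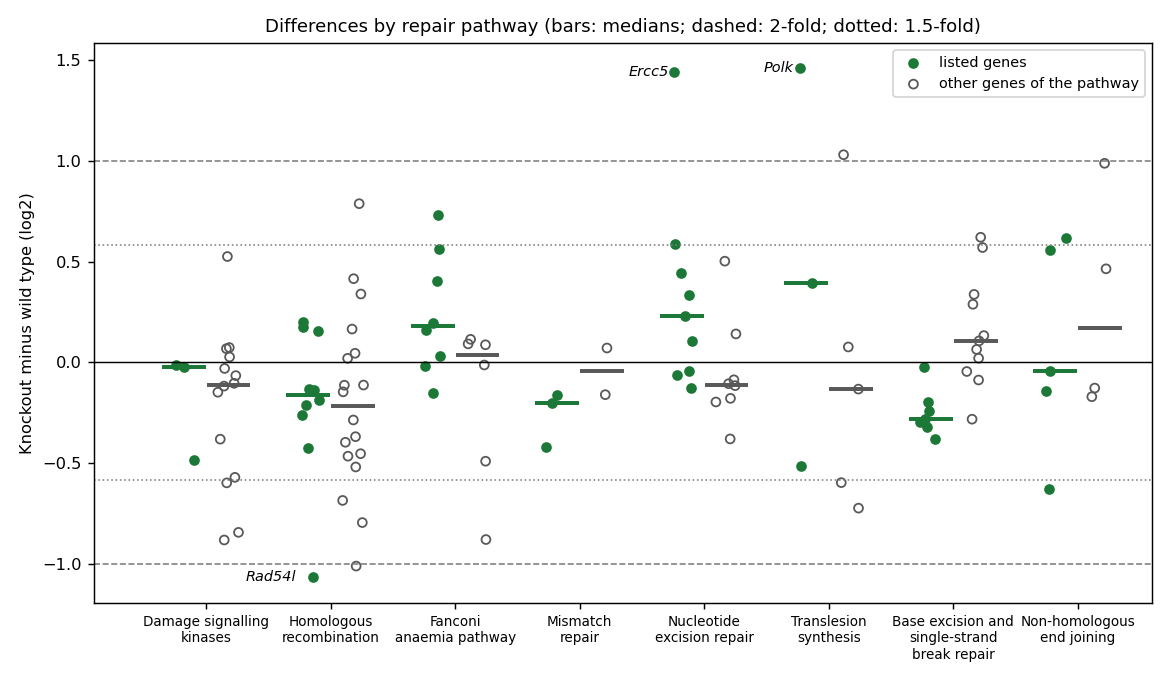
Knockout minus wild-type difference (log2) for the listed genes (filled) and other genes of each pathway (open), with medians as bars and 2-fold and 1.5-fold as dashed and dotted lines. Base excision repair has all 7 listed genes below 0 while 8 of its 11 other genes lie above it. Of these 11 genes 4 were not above the level limit.

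The 3 listed genes taken as p53-regulated, Polk, Xpc and Ddb2, did not move together. This split was fixed with the list, and p53 regulation of the other 45 genes was not assessed. Polk had the highest difference of all 48, while Xpc, the sensor of helix-distorting lesions, was at 7.69 and 7.56 and Ddb2, which detects ultraviolet damage in chromatin, at 7.77 and 7.71. The differences of the latter, -0.12 and -0.06, lie close to the median of the other 45 genes, -0.04. Those 45 ran from -1.07 to 1.44.

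Other known p53 targets stood higher in the same knockout sample. Of 16 measured p53 targets outside repair, 15 were above the limit, and the median difference over the 16 was 1.24. Of the 15, 9 were at least 2-fold higher, or 60.0% against 4.62% of all genes above the limit. At least 2-fold lower was 1, or 6.67% against 2.97%. That list was set with earlier results of these data known and gives no independent support. Cdkn1a, which encodes the arrest protein p21, had a difference of 1.91, and Mdm2, whose product degrades p53, one of 1.83. Polk, with 1.46, lies within the range of that list, and Xpc and Ddb2 lie above only Perp and Plk3 of it, at -0.16 and -1.25. Gadd45a, a p53-responsive gene linked to excision repair, was not higher, at 7.62 and 7.36.

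**Figure D4:**
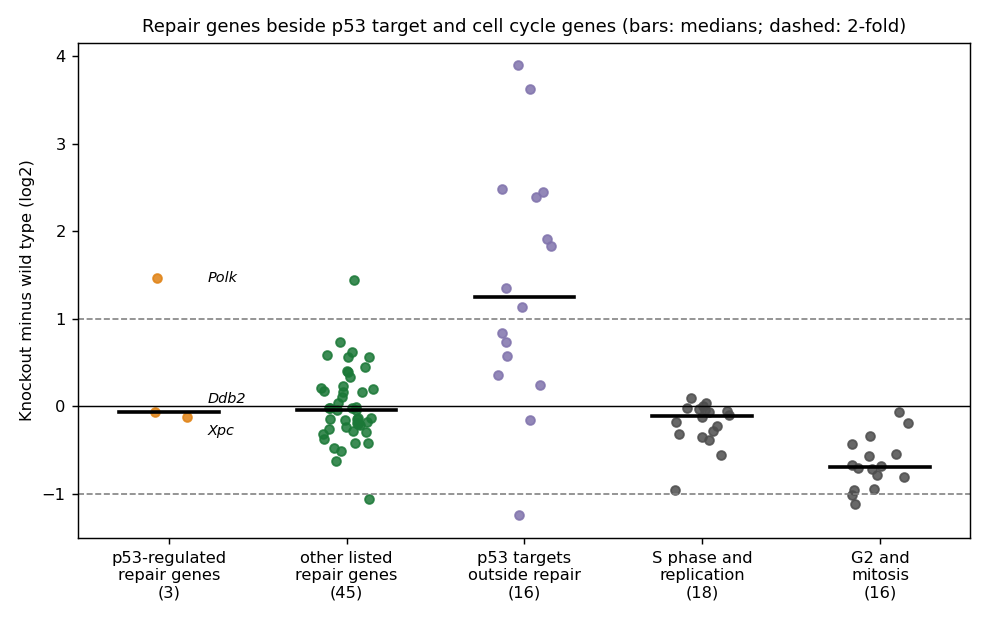
Knockout minus wild-type difference (log2) for the 3 p53-regulated repair genes, the other 45 listed genes, 16 p53 targets outside repair, 18 S phase genes and 16 genes of G2 and mitosis, with medians as bars and 2-fold dashed. Polk lies among the p53 targets, whose median is 1.24, and Xpc and Ddb2 lie near 0.

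Outside these pathways, Mgmt had the largest difference among the repair genes on all the lists used. Mgmt, which reverses alkylation of guanine directly, went from 6.59 to 8.41, a difference of 1.82 or 3.53-fold. It passed the level limit by its knockout value only. The other direct reversal genes, Alkbh2 and Alkbh3, which remove methyl groups from bases, differed by 0.02 and 0.10.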

How the data were processed

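The data are a table of 23332 probe sets by 2 samples. Its log2 values were made by the authors with RMA in Affymetrix Expression Console, per the submitters' processing notes, which give no version. The sources used here do not say whether these arrays were normalized together, nor the filters or the genome build. Expression was measured on total RNA, 250 ng per sample, per the labels' protocols. The number of arrays limits the precision.

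The platform table gave 14996 probe sets a single gene symbol, 1019 several, and none to 7317. Genes with several single-symbol probe sets were taken at the one with the highest mean. No test was run and no p-value computed. The background level of 5.05 came from 801 receptor genes. Python 3.11.15, numpy 2.4.6 and pandas 2.3.3 were used, and the counting was tested on simulated data. Motifs were searched in RefSeq promoter windows of GRCm38.p6, matched by gene ID.

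The members, the pathway lists and the other lists were chosen with earlier results of these data known. All listed genes are named. Of other pathway genes, those above the limit at 1.5-fold or, failing these, the largest of a pathway were to be named, and of context lists up to 4, and further names were chosen after their values were seen. Alternatives were the probe set rule, column centring, joint quantile normalization, raising low values and other level filters.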

Additional observations from a re-analysis of the deposited data

How the results depend on the processing

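The 2-fold counts of 2 higher and 1 lower repair genes were the same under all alternatives run for them. The 1.5-fold counts moved: 4 higher genes became 2 with column centring and 2 with joint quantile normalization, losing Ercc1 and Prkdc each time, and 2 lower genes became 4 with column centring, which added Chek1 and Polh. Other pathway genes at least 2-fold higher went from 1 to 0 with column centring, an alternative added after the data were seen, as Rev1 fell under 2-fold. Pathway medians moved by at most 0.12 with either scaling and kept their sign, and with the mean in place of the median only end joining changed sign, from -0.04 to 0.07. Averaging probe sets and raising low values changed no repair gene, since each has 1 probe set and none a value below the background level. No paired analysis was possible because each genotype has 1 sample. For the same reason no replicate could be left out, and the spread against which values were judged was the median size of difference of genes above the limit, 0.24. No detection calls came with the values.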

Other observations

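The chromosomal neighbours of the 3 genes at 2-fold were read out as values, which was decided with the data in view. Among genes with a probe set of their own, the nearest on either side of Polk, Poc5 and Cert1, differed by -0.27 and -0.16. Beside Ercc5, Bivm differed by 0.14, at 8.44 and 8.58, and Mettl21e, under the background level in both samples, by 0.05. On both sides of Rad54l the nearest genes were lower too: Lrrc41, a leucine-rich repeat protein gene, went from 10.26 to 9.64 and Pomgnt1, a glycosyltransferase gene, from 9.06 to 8.21, differences of -0.62 and -0.85 beside -1.07 for Rad54l itself. Gprc5a lies on chromosome 6, as do 3 of the measured repair genes. Their differences were -0.12 for Xpc, -0.02 for Ogg1 and 0.16 for Rad52.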
